A study of Mus musculus with 81 samples.

Results

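The genes described here are 8 imprinted genes of the mouse, H19, Igf2, Dlk1, Meg3, Peg3, Peg10, Grb10 and Plagl1. They were taken by symbol from a table of 51826 genes, and all 8 were found. They had been picked because their levels differed between tumours in these same libraries, so their levels and their differences from normal thymus are given as descriptions without p-values. RNA sequencing was done on 81 libraries of thymic tissue from 40 mice of a C57BL/6 x 129S4Sv/Jae background. Each mouse carried Plk4(Col1a1), rtTA(Rosa) and centrin-GFP(Rosa), a set in which doxycycline drives the transgene for Plk4, the kinase that starts centriole duplication. The stated subject of the series is the part that aneuploidy, a wrong number of chromosomes, plays in tumours.

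Normal thymus came from 8 untreated p53+/+ mice, with 1 library each. The lymphomas formed 3 groups. Of these, 23 libraries belonged to 10 untreated p53-/- mice, 18 libraries to 9 treated p53-/- mice and 31 libraries to 12 treated p53+/- mice. Treatment was 2 weeks of doxycycline from 30 days of age. All 31 tumours were thymic lymphomas; 13 of them were biopsied at several places and 18 once. A further untreated normal thymus, from p53+/- mouse 819, stood alone in its group and entered no test. The labels give no age at collection, the labelled sex was uneven (4 of 8, 9 of 10, 4 of 9 and 3 of 12 mice male in the order above), and no treated normal thymus and no untreated p53+/- lymphoma were analysed here. Biopsies of a tumour were summed, so that the mouse was the replicate. Apart from the animal numbers nothing shows how the mice of a group were related or batched.

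Imprinted genes are transcribed mainly from 1 parental copy, because DNA methylation laid down in the egg or sperm marks the parents' copies differently and shared control regions act on clusters of neighbouring genes. H19 and Igf2 share such a region and are read from opposite parental copies, H19 from the maternal and Igf2 from the paternal one. Dlk1 (paternal) and Meg3 (maternal) form a second pair of this kind. Many imprinted genes act on growth before birth and are turned down in most adult tissues. Bulk RNA levels do not show which parental copy was read.

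Levels are given as CPM, the expected counts of a gene after scaling the library total to 1000000. A gene was called high at 10 CPM or more and low under 1 CPM. These limits are arbitrary. Library totals ran from 1030429 to 26871780 counts, so that 3 counts corresponded to between 0.112 and 2.91 CPM. The libraries with the highest such floors were 3 of the 4 biopsies of lymphoma 857. Intervals of single libraries are Wilson 95% intervals and cover counting error only.

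Some facts about single animals bear on the results. Normal mouse 387 had lower summed T-cell markers than the other normal thymuses (766 CPM against a group median of 5428) and the highest fat markers (8991 CPM, group median 2508). It also had the most fibroblast (1340 CPM, median 171), B-cell (1030, median 108) and endothelial markers (527, median 252) and the fewest thymic epithelial markers (121, median 1826) of that group. The untreated p53-/- lymphoma 881 had the lowest T-cell markers of all lymphomas (166 CPM, median of 31 lymphomas 2910) and the highest B-cell markers (2835 CPM, median 12.4) and thus carried B-cell rather than T-cell markers. The untreated p53-/- lymphoma 562 had 2774 CPM of skeletal muscle markers, where the median lymphoma had 11.3. Mice 328, 869 and 870 went against their labelled sex by Xist and Y-linked genes. Defining T-cell markers were present in every group. Thymic epithelial markers had a median of 46.7 CPM in lymphomas and 1826 CPM in normal thymus. Fat markers ran from 30.6 to 199 CPM in lymphomas (median 70.1) and from 918 to 8991 CPM in p53+/+ normal thymus, without overlap. The p53+/- normal thymus 819 had 148 CPM of them, within the range of the lymphomas. B-cell markers had medians of 12.4 and 108 CPM. Fibroblast markers were higher in the median lymphoma (504 CPM) than in the median normal thymus (171 CPM). The part of these cells in the differences from normal thymus was not tested. In bulk tissue, fewer cells of a type and less RNA per cell cannot be told apart.

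Most lymphomas held none or 1 of the 8 genes at a high level. None was high in 10 lymphomas, 1 in 14, 2 in 5 and 3 in 2 (mice 266 and 562). Lymphoma 266 had the most fibroblast markers of the 31 lymphomas (2296 CPM, median 504) and 1465 CPM of T-cell markers (median 2910), and their part in its levels was not tested. Which gene was high varied from tumour to tumour. Dlk1 and Grb10 were high in 11 lymphomas each, H19 in 4, Igf2, Peg3, Peg10 and Plagl1 in 1 each, and Meg3 in none. Of the 8 p53+/+ normal thymuses, 7 were high for Grb10, 5 for Plagl1, 3 for Peg3, and 1 each for Igf2 and Meg3. None was high for H19, Dlk1 or Peg10. Of the 15441 genes with a mean of at least 1 CPM, 16.2% had at least 1 lymphoma at 10 CPM or more and at least 1 under 1 CPM. H19, Dlk1, Peg3, Peg10, Igf2 and Plagl1 had that pattern. Among lymphomas the standard deviation of log2(CPM + 1) was 2.45 for Dlk1 and 1.74 for H19, and its median over 14893 genes was 0.54. It was 1.21 for Plagl1, 1.14 for Grb10, 1.12 for Peg10, 0.81 for Peg3, 0.76 for Igf2 and 0.65 for Meg3.

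**Figure D1:**
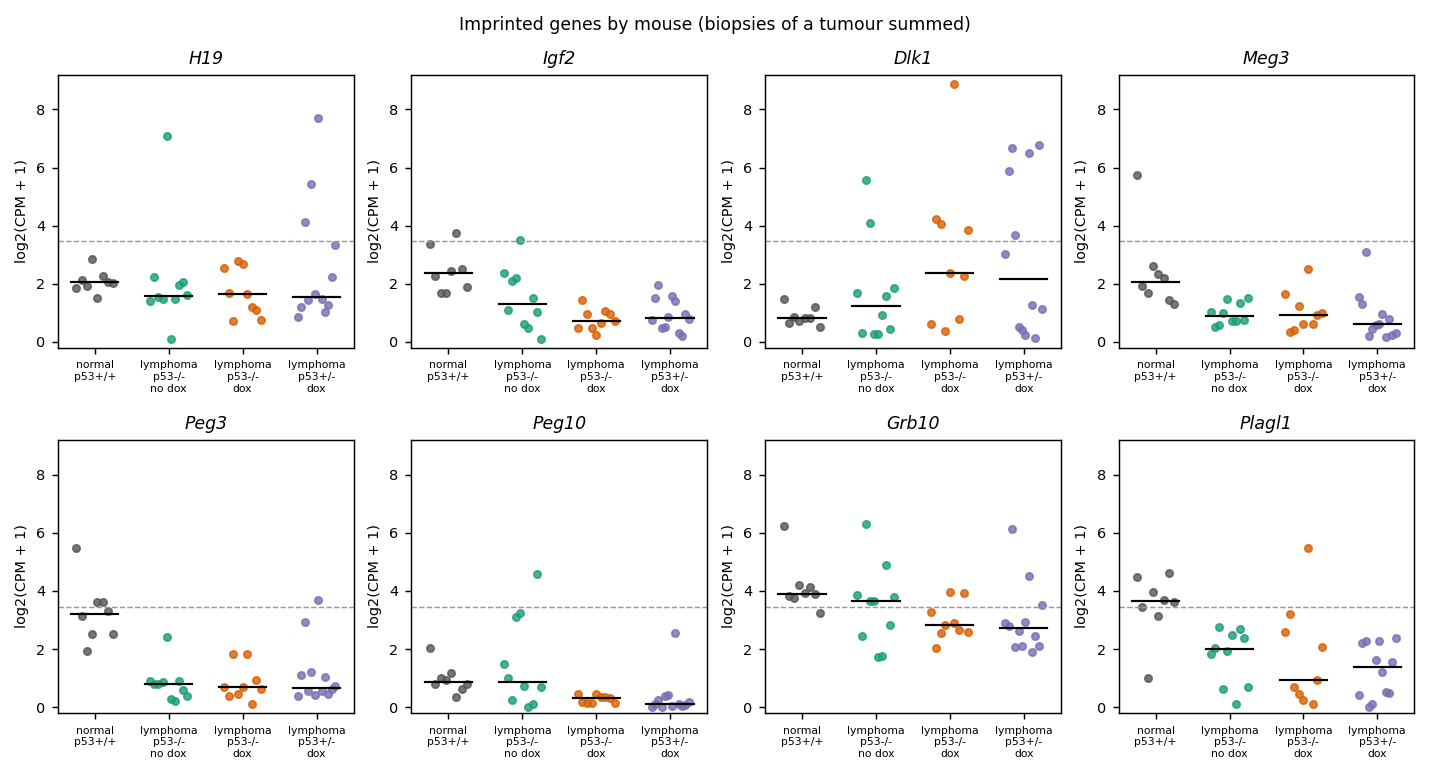
Level of each gene in each mouse as log2(CPM + 1), by group; points are mice, black lines group medians and the dashed line marks 10 CPM. Single lymphomas stand far above their groups for H19 (up to 208 CPM) and Dlk1 (up to 473 CPM), whereas most lymphomas lie under the normal thymuses for Peg3.

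H19 is a long non-coding RNA and the host of the microRNA miR-675. Its gene (ENSMUSG00000000031) lies on the minus strand at chr7:142575529-142578143 of GRCm38 and is annotated as a lincRNA. The 2 mature microRNAs are shown because the H19 transcript they are cut from varied between tumours. Both lie inside the H19 gene, at chr7:142577112-142577133 (5p) and chr7:142577078-142577099 (3p), and are given from RefSeq (GRCm38.p6) with the seed, bases 2 to 8, in capitals. The arms have different seeds, and neither microRNA was measured by these libraries' gene counts.
mmu-miR-675-5p: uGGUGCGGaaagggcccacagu
mmu-miR-675-3p: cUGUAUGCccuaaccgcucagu

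H19 ran from 1.86 to 6.29 CPM in the 8 normal thymuses, with a median of 3.15. In untreated p53-/- lymphomas the lowest, median and highest values were 0.0735, 1.98 and 136 CPM. In treated p53-/- lymphomas they were 0.633, 2.13 and 5.86 CPM, and in treated p53+/- lymphomas 0.823, 1.94 and 208 CPM. The group medians therefore lay close together and below the normal median, and the difference sat in a few tumours.

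The highest level was in treated p53+/- lymphoma 862 (208 CPM). It was followed by untreated p53-/- lymphoma 562 (136 CPM, interval 131 to 141), treated p53+/- lymphoma 309 (42.4 CPM) and treated p53+/- lymphoma 266 (16.5 CPM, interval 14.8 to 18.4). The next lymphoma, 908, had 9.07 CPM and was the last one above all normal thymuses. No treated p53-/- lymphoma exceeded the normal range, and 14 of 31 lymphomas lay below it. Lymphoma 562 alone held 87.8% of its group's summed H19 CPM, and it is the tumour with the high muscle markers. Whether muscle in that sample contributed was not tested. Muscle markers were between 7.86 and 31.5 CPM in all treated p53+/- lymphomas, which include 862, 309 and 266.

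The fitted log2 difference of H19 from normal thymus was 2.73 ± 1.15 (SE) for the untreated p53-/- group, -0.52 ± 1.08 for the treated p53-/- group and 2.39 ± 1.19 for the treated p53+/- group. The first value turned to -0.26 when lymphomas 562 and 881 were left out, and the last was 1.33 with single-biopsy tumours only.

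Igf2 encodes insulin-like growth factor 2, a fetal growth factor. Its gene (ENSMUSG00000048583) lies upstream of H19 on the same strand, at chr7:142650766-142666816. Normal thymuses ran from 2.19 to 12.6 CPM with a median of 4.15. The lowest, median and highest lymphomas had 0.0757, 1.52 and 10.5 CPM in the untreated p53-/- group, 0.181, 0.644 and 1.73 CPM in the treated p53-/- group and 0.152, 0.778 and 2.91 CPM in the treated p53+/- group. All 9 treated p53-/- lymphomas and 11 of 12 treated p53+/- lymphomas lay below every normal thymus, as did 6 of 10 untreated p53-/- lymphomas. Among genes with a mean of at least 1 CPM, whole groups lay below all normal thymuses for 9.66% (treated p53-/-), 6.74% (treated p53+/-) and 5.14% (untreated p53-/-). Whole groups lay above all of them for 8.3%, 6.12% and 2.58%. Nothing is read from these shares, since Igf2 was chosen on its levels. The fitted log2 differences from normal were -1.08 ± 0.69, -2.81 ± 0.66 and -2.22 ± 0.57 (SE) in the order of the groups above.

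High H19 did not come with high Igf2 except in lymphoma 562, which had the highest Igf2 of all lymphomas (10.5 CPM). Igf2 was 2.02 CPM in lymphoma 862, 0.444 in lymphoma 309 and 2.91 in lymphoma 266. Over the 31 lymphomas Spearman's rho of H19 and Igf2 was 0.17.

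**Figure D2:**
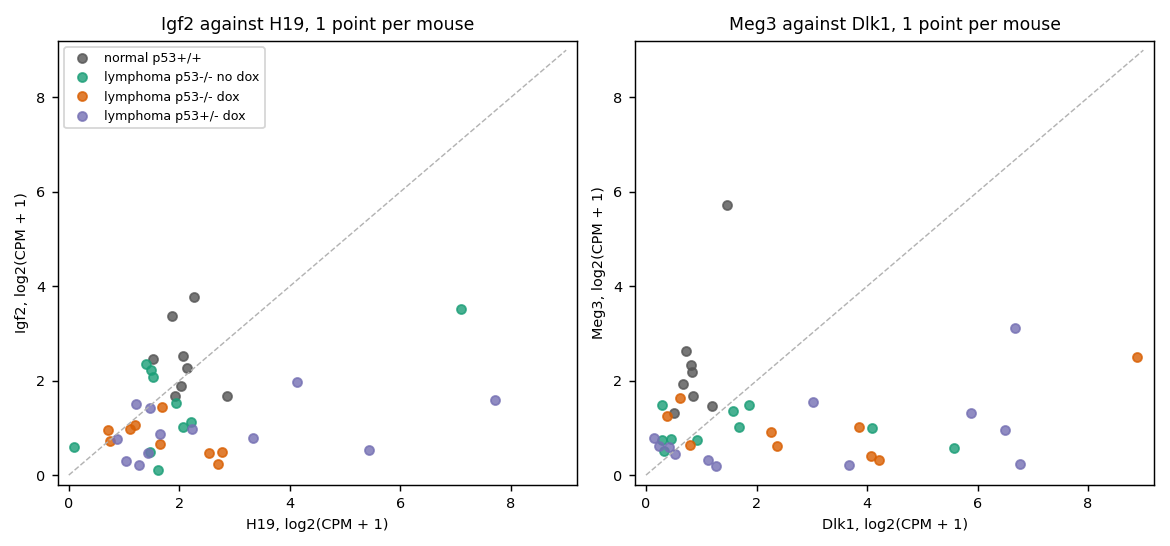
Igf2 against H19 (left) and Meg3 against Dlk1 (right), each axis as log2(CPM + 1), with 1 point per mouse and the dashed line marking equal CPM. Lymphomas with high H19 or Dlk1 extend along the horizontal axis while Igf2 and Meg3 stay at or under 10.5 and 7.63 CPM, and normal mouse 387 stands apart by its Meg3 (51.97 CPM).

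Dlk1 encodes a transmembrane protein of the Delta family without the Notch-activating domain of classical ligands, known from fetal tissue and fat precursors. Meg3 is the non-coding RNA read from the other parental copy of the same domain. Dlk1 (ENSMUSG00000040856) lies at chr12:109452823-109463336 and Meg3 (ENSMUSG00000021268, a lincRNA) at chr12:109541001-109571726, both on the plus strand. Their RefSeq promoters (GRCm38.p6, 250 bases before to 50 after a start site) are shown because the levels of the 2 genes went separate ways in the tumours. Capitals mark matches, on either strand, to TGCCGC, the core that ZFP57 reads when it keeps imprints, and to TATAAA.
Dlk1 (chr12:109452573-109452872, plus strand): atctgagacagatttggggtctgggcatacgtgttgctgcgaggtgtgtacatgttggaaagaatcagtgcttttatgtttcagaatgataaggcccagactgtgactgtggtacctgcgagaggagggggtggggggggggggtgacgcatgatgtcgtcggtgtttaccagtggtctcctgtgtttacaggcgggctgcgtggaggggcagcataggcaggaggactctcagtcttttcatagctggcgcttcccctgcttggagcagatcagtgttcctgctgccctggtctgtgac
Meg3 (chr12:109540746-109541045, plus strand): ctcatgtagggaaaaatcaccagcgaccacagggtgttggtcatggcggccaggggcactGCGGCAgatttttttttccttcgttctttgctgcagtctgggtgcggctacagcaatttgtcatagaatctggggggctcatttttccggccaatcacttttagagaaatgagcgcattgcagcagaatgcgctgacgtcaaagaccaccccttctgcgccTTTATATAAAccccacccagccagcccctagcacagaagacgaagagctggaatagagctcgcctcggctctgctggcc

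The Meg3 window held 1 match to TGCCGC, on the minus strand, and overlapping matches to TATAAA on both strands. The Dlk1 window held none of these letters. TGCCGC was present in 11.6% and TATAAA in 13.6% of the 32851 mouse promoters of the same length. The Dlk1 window held 9 CG pairs and the Meg3 window 13, and the median promoter held 7. A second Meg3 start, and promoters of Igf2 (4), Peg3 (1), Grb10 (2) and Plagl1 (1), were also searched. TGCCGC occurred in 1 window each of Igf2, Grb10 and Plagl1. Neither GCCATNTT (YY1) nor the longer CTCF motif occurred in any of them, and they were present in 6.05% and 0.122% of all promoters. Promoters of H19 and Peg10 were not searched. A match describes letters only.

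Dlk1 was low in normal thymus, from 0.413 to 1.78 CPM with a median of 0.768. Its lowest, median and highest levels were 0.217, 1.44 and 46.5 CPM in untreated p53-/- lymphomas. They were 0.307, 4.17 and 473 CPM in treated p53-/- lymphomas and 0.111, 4.29 and 107 CPM in treated p53+/- lymphomas. Of the 31 lymphomas, 17 lay above every normal thymus and 8 below every one, so that the lymphomas spread to both sides of the normal range.

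Dlk1 was high in 2 of 10 untreated p53-/-, 4 of 9 treated p53-/- and 5 of 12 treated p53+/- lymphomas. Lymphoma 663, treated p53-/-, led with 473 CPM (interval 460 to 487). It held 89.4% of the summed Dlk1 CPM of its group. Lymphomas 905 (107 CPM), 266 (101 CPM), 884 (89.1 CPM) and 25 (58.2 CPM), all treated p53+/-, and lymphoma 202 (46.5 CPM), untreated p53-/-, followed. The other 5 lay between 11.8 and 17.6 CPM.

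The fitted log2 difference of Dlk1 from normal was 2.24 ± 1.58 (SE) for the untreated p53-/- group, 5.14 ± 1.66 for the treated p53-/- group and 5.66 ± 1.58 for the treated p53+/- group. With single-biopsy tumours only, the first value was 0.24. Without normal mouse 387 the values were 2.78, 5.73 and 6.53. The group medians, given above, lay far below the highest tumours.

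Meg3 ran from 1.497 to 51.97 CPM in normal thymus. The upper end was mouse 387, and without it the highest normal value was 5.17 CPM. The lymphoma medians were 0.858 (untreated p53-/-), 0.893 (treated p53-/-) and 0.518 CPM (treated p53+/-), against 3.18 CPM in normal thymus. The highest lymphomas were 266 (7.63 CPM) and 663 (4.69 CPM), and both also had high Dlk1. In the other 9 Dlk1-high lymphomas Meg3 lay between 0.154 and 1.49 CPM. Below every normal thymus lay 24 of 31 lymphomas. The log2 differences from normal were -2.61 ± 0.82, -2.71 ± 0.80 and -3.04 ± 0.70 (SE) with mouse 387 and -1.27, -1.1 and -1.14 without it.

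Rian, a further non-coding RNA of the Dlk1 and Meg3 domain, tracked Meg3 most closely of all 14892 genes compared (Spearman's rho 0.79 over 31 lymphomas), while rho of Dlk1 was 0.09 with Meg3 and 0.26 with Rian. Rian fell in treated p53+/- lymphomas (median 0.869 CPM against 2.73 in normal thymus, log2 difference -2.90 ± 0.60, edgeR adjusted p = 0.000137). It did not pass the test in untreated p53-/- lymphomas (-1.56 ± 0.67, edgeR adjusted p = 0.0596) or in treated p53-/- lymphomas (-1.48 ± 0.66, edgeR adjusted p = 0.0559). Mouse 387 held 68.4% of the summed Rian CPM of the normal thymuses (41.6 CPM, the others 1.39 to 4.92). Without it the call in treated p53+/- lymphomas was lost (-1.21, edgeR adjusted p = 0.0751), and the other differences were -0.36 and -0.08. The remaining genes listed for this domain, Mirg, Rtl1 and Dio3, averaged under 1 CPM.

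Peg3 encodes a zinc finger protein read from the paternal copy. Its gene (ENSMUSG00000002265) lies at chr7:6703892-6730431, on the minus strand. Normal thymuses ran from 2.79 to 44.1 CPM (median 8.36), again with mouse 387 at the top and the next at 11.4 CPM. The lowest, median and highest lymphomas had 0.162, 0.744 and 4.39 CPM when untreated p53-/-, 0.0915, 0.604 and 2.59 CPM when treated p53-/-, and 0.294, 0.592 and 11.9 CPM when treated p53+/-. Peg3 lay below every normal thymus in 28 of 31 lymphomas.

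The 3 exceptions were lymphomas 862 (11.9 CPM), 266 (6.62 CPM) and 562 (4.39 CPM), which are also 3 of the 4 H19-high tumours. The fourth, 309, had 1.33 CPM. Spearman's rho of Peg3 and H19 over all 31 lymphomas was 0.33. The log2 differences from normal were -3.34 ± 0.83, -3.67 ± 0.83 and -2.68 ± 0.70 (SE), and -2.69, -2.82 and -1.55 without mouse 387. Without lymphomas 562 and 881 the untreated p53-/- value was -4.14. The neighbours Usp29, Zim1 and Zfp264 averaged under 1 CPM.

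Peg10 derives from a retrotransposon, is read from the paternal copy and is needed for the placenta. Its gene (ENSMUSG00000092035) lies at chr6:4747306-4760517, on the plus strand. Normal thymuses had 0.277 to 3.09 CPM (median 0.835), and 387 was again the highest. Untreated p53-/- lymphomas ran from 0 to 22.8 CPM with a median of 0.831. Treated p53-/- lymphomas stayed between 0.102 and 0.378 CPM, and treated p53+/- lymphomas between 0 and 4.82 CPM with a median of 0.0777.

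Peg10 exceeded every normal thymus in 4 lymphomas, namely 899 (22.8 CPM), 562 (8.55 CPM) and 325 (7.68 CPM), all untreated p53-/-, and 884 (4.82 CPM), treated p53+/-. All other lymphomas had at most 1.78 CPM. The log2 differences from normal were 2.26 ± 1.14, -2.39 ± 1.1 and -1.23 ± 0.99 (SE) for the 3 groups. Without mouse 387 they were 2.68, -1.67 and -0.38. With single-biopsy tumours only the first was 0.97 and the last -2.77.

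Sgce, which shares its start region with Peg10 in the opposite direction, was also highest in lymphoma 899 among all lymphomas (11.99 CPM, with 9.15 to 14.4 CPM in its 5 biopsies). It was 2.21 CPM in lymphoma 562, 2.09 CPM in lymphoma 325 and 2.92 CPM in lymphoma 884. The median lymphoma had 1.26 CPM of Sgce and the median normal thymus 7.01 CPM, and rho with Peg10 was 0.48. Sgce fell in all 3 lymphoma groups (log2 difference -1.82 ± 0.59, -2.61 ± 0.59 and -3.02 ± 0.53 (SE), edgeR adjusted p = 0.0137, 0.00039 and 1.4e-05). Normal mouse 387 had 44.6 CPM of Sgce and the others 3.46 to 9.22 CPM. Without it the first call was lost (-1.06, edgeR adjusted p = 0.0898), and the other differences were -1.61 and -1.89. Of the other genes near Peg10, Pon3 and Ppp1r9a also fell in all 3 groups. Their differences were -2.42, -3.25 and -2.98 for Pon3 and -3.23, -4.34 and -3.15 for Ppp1r9a. Without mouse 387 the calls stayed, at -1.92, -2.57 and -2.23 for Pon3 and -2.25, -3.14 and -2.002 for Ppp1r9a. Asb4 rose in treated p53+/- lymphomas (3.28 ± 1.04, edgeR adjusted p = 0.00864), a call that was lost with single-biopsy tumours only (1.82). Its differences in untreated and treated p53-/- lymphomas did not pass (2.01 ± 1.05 and 2.26 ± 1.09, edgeR adjusted p = 0.124 and 0.0782). Pon2 fell in treated p53-/- lymphomas (-0.72 ± 0.20, edgeR adjusted p = 0.00357), a call lost without mouse 387 (-0.48).

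Grb10 encodes an adaptor that dampens signals of the insulin and insulin-like growth factor receptors. Its gene (ENSMUSG00000020176) lies at chr11:11930508-12038683, on the minus strand. It was the most steadily present of the 8 genes, with no lymphoma under 1 CPM. Normal thymuses ran from 8.57 to 74.6 CPM (median 14.1), and from 8.57 to 17.5 CPM without mouse 387. The lowest, median and highest lymphomas had 2.28, 11.6 and 77.5 CPM (untreated p53-/-), 3.13, 6.14 and 14.5 CPM (treated p53-/-) and 2.704, 5.56 and 68.5 CPM (treated p53+/-).

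The lymphomas with less Grb10 than any normal thymus numbered 4 of the 10 untreated p53-/-, 6 of the 9 treated p53-/- and 9 of the 12 treated p53+/-. Lymphomas 202 (77.5 CPM), 266 (68.5 CPM), 881 (28.5 CPM) and 884 (21.8 CPM) exceeded the normal mice other than 387. Of these 4 lymphomas, 3 were also Dlk1-high, and Dlk1 and Grb10 were high together in 4 lymphomas. The log2 differences from normal were 0.18 ± 0.66, -1.62 ± 0.64 and -1.06 ± 0.59 (SE). Without mouse 387 the 3 values were 0.69, -0.84 and -0.21, and with single-biopsy tumours only the first turned to -0.92. Compared per kilobase of annotated exon, the median normal thymus had 1.55 CPM per kb of Grb10, 1.49 of Plagl1, 1.28 of H19, 0.724 of Igf2, 0.627 of Peg3, 0.176 of Meg3, 0.136 of Dlk1 and 0.125 of Peg10.

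Ddc, the aromatic amino acid decarboxylase gene next to Grb10, rose in all 3 lymphoma groups (log2 difference 3.89 ± 0.86, 4.51 ± 0.87 and 4.2 ± 0.85 (SE), edgeR adjusted p = 0.000457, 5.5e-05 and 9.6e-05). It had 0.930 to 2.42 CPM in normal thymus and exceeded every normal thymus in 26 of 31 lymphomas, with a median of 23.2 CPM. The fitted differences of Grb10 in the same groups were 0.18, -1.62 and -1.06, and 0.69, -0.84 and -0.21 without mouse 387.

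Plagl1 encodes a zinc finger factor that restrains proliferation. Its gene (ENSMUSG00000019817) lies at chr10:13060504-13131694, on the plus strand. Normal thymuses had 0.998 to 23.7 CPM, with a median of 11.6, and the lowest of them was mouse 624. The lowest, median and highest lymphomas had 0.0811, 2.97 and 5.74 CPM (untreated p53-/-), 0.0915, 0.92 and 43.4 CPM (treated p53-/-) and 0, 1.64 and 4.15 CPM (treated p53+/-).

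Lymphoma 663, which led for Dlk1, was also the only one above the normal range for Plagl1 (43.4 CPM, interval 39.6 to 47.6). The next lymphoma, 497, had 8.31 CPM. Of the treated p53-/- group, lymphoma 663 had the most thymic epithelial markers (169 CPM, median 51.9) and the most fibroblast markers (961 CPM, median 596). Their part in its levels was not tested. Normal mouse 624 had 0.998 CPM from 5 counts, in the smallest normal library. Only 13 of 31 lymphomas lay below it and thus below every normal thymus. The other normal thymuses had 7.86 to 23.7 CPM, and only lymphomas 663 and 497 had at least 7.86 CPM. The log2 differences from normal were -2.90 ± 0.92, -1.51 ± 0.87 and -2.72 ± 0.77 (SE), and -2.45, -1.001 and -2.13 without mouse 387.

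In the fits over 17841 genes, edgeR called 40.7% of genes between untreated p53-/- lymphomas and normal thymus, 52.1% for treated p53-/- and 50.9% for treated p53+/- lymphomas. Among the 8 genes, 0 were called higher and 3 lower in the first comparison, 1 higher and 4 lower in the second and 1 higher and 4 lower in the third. Without normal mouse 387 the lower calls were 2 in each comparison. Of all genes tested, 23.2%, 25.4% and 25.6% were called higher and 17.6%, 26.7% and 25.3% lower in the same order. The shares are printed for scale only, since the genes were chosen on these levels. The 3 comparisons share their normal mice. The median log2 difference over the 8 genes was -0.45, -2.0 and -1.72, and over all genes tested 0.08, -0.04 and -0.001. Without normal mouse 387 the medians were -0.04, -1.05 and -0.76 over the 8 genes and 0.21, 0.11 and 0.15 over all genes.

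Between lymphoma groups edgeR called 0 of 16387 genes in each of 3 contrasts. In the order treated against untreated p53-/-, treated p53+/- against treated p53-/- and treated p53+/- against untreated p53-/-, 1915, 866 and 1039 genes had an unadjusted p under 0.05. DESeq2 called 75, 12 and 3 genes, and 0 of the members in any contrast. Peg10 was too low to enter this fit. Of the other 7 genes 3, 1 and 1 had an unadjusted p under 0.05 in edgeR, and 4, 1 and 2 in DESeq2. Nothing is read from these numbers, since the genes were chosen because their levels differed between tumours in these libraries. The log2 difference of Dlk1 between treated and untreated p53-/- lymphomas was 2.95 ± 1.35 (SE), and that of Grb10 -1.75 ± 0.73. Neither passed after adjustment over all genes, which does not show that the groups were alike.

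Biopsies of 1 tumour agreed for some genes and tumours and not for others. In lymphoma 899 Peg10 was between 19.5 and 27.7 CPM in all 5 biopsies. In lymphoma 905 Dlk1 was between 61.03 and 183 CPM in all 4. Lymphoma 202 kept high Dlk1 (38.4 to 67.3 CPM) and high Grb10 (24.9 to 146 CPM) in its 4 biopsies, and lymphoma 881 kept high Grb10 (16.7 to 38.1 CPM).

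Lymphoma 862 held H19 at 184, 285, 231 and 257 CPM in biopsies 1, 3, 5 and 7 and at 16.5 CPM (interval 14.5 to 18.8) in biopsy 9. Peg3 followed the same division, with 12.03, 5.52, 17.7 and 20.4 CPM in the first 4 and 0.886 CPM in biopsy 9. Biopsy 9 had the highest fibroblast markers of the tumour (1358 CPM, the others 338 to 887) and the highest macrophage markers (831 CPM, the others 244 to 594). Its T-cell markers were 3024 CPM, where the others had 2778 to 2993. Whether these cells account for the lower H19 was not tested.

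Lymphoma 884 divided in the opposite direction for different genes. Biopsy 2 had 212 CPM of Dlk1 (interval 204 to 220), 0.152 CPM of Peg10 and 9.25 CPM of Grb10. Biopsies 5, 6 and 8 had 7.09, 14.05 and 3.06 CPM of Dlk1, but 4.72, 7.73 and 10.3 CPM of Peg10 and 32.02, 28.7 and 31.2 CPM of Grb10. Biopsy 2 had fewer fibroblast markers (305 CPM) than the other 3 (937 to 1280 CPM) and more T-cell markers (2013 CPM against 1101 to 1539). The part of these cells in the result was not tested.

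Single biopsies stood out in 3 further tumours. Dlk1 was 21.3 CPM in biopsy 3 of lymphoma 869 and 0.314 to 0.462 CPM in its other 3. In lymphoma 908 H19 was 17.8 CPM in biopsy 3 and 1.73 to 8.01 CPM elsewhere. That biopsy had 806 CPM of fibroblast markers (the others 295 to 456) and 3534 CPM of T-cell markers (the others 2594 to 3135). Plagl1 was 16.3 CPM in biopsy 7 of lymphoma 881 and 0.787 to 3.10 CPM in the other 3, and that biopsy also had the most thymic epithelial markers (998 CPM, the others 27.7 to 338). Biopsy 3 of lymphoma 869 likewise had 266 CPM of these markers, where its other biopsies had 2.04 to 3.98. The part of thymic epithelium or of fibroblasts in these values was not tested.

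Counted over the 13 tumours with several biopsies, H19 was high in all biopsies of 1, in some of 1 and in none of 11. For Dlk1 the numbers were 2, 4 and 7, for Grb10 2, 4 and 7, and for Peg10 1, 2 and 10. Peg3 and Plagl1 were each high in some biopsies of 1 tumour, and Igf2 and Meg3 in none of 13. So of the 19 pairs of a gene and a tumour with any high biopsy, 6 had all biopsies high. This count rests on the limit of 10 CPM. Grb10 in lymphoma 325 (9.49 to 14.9 CPM) and Dlk1 in lymphoma 870 (7.33 to 19.9 CPM) had only some biopsies high. So did Dlk1 in lymphomas 869 (0.314 to 21.3 CPM) and 884 (3.06 to 212 CPM), with wider ranges. Grb10 in lymphoma 202 (24.9 to 146 CPM) counted as high in all. The same count over all genes is not given.

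**Figure D3:**
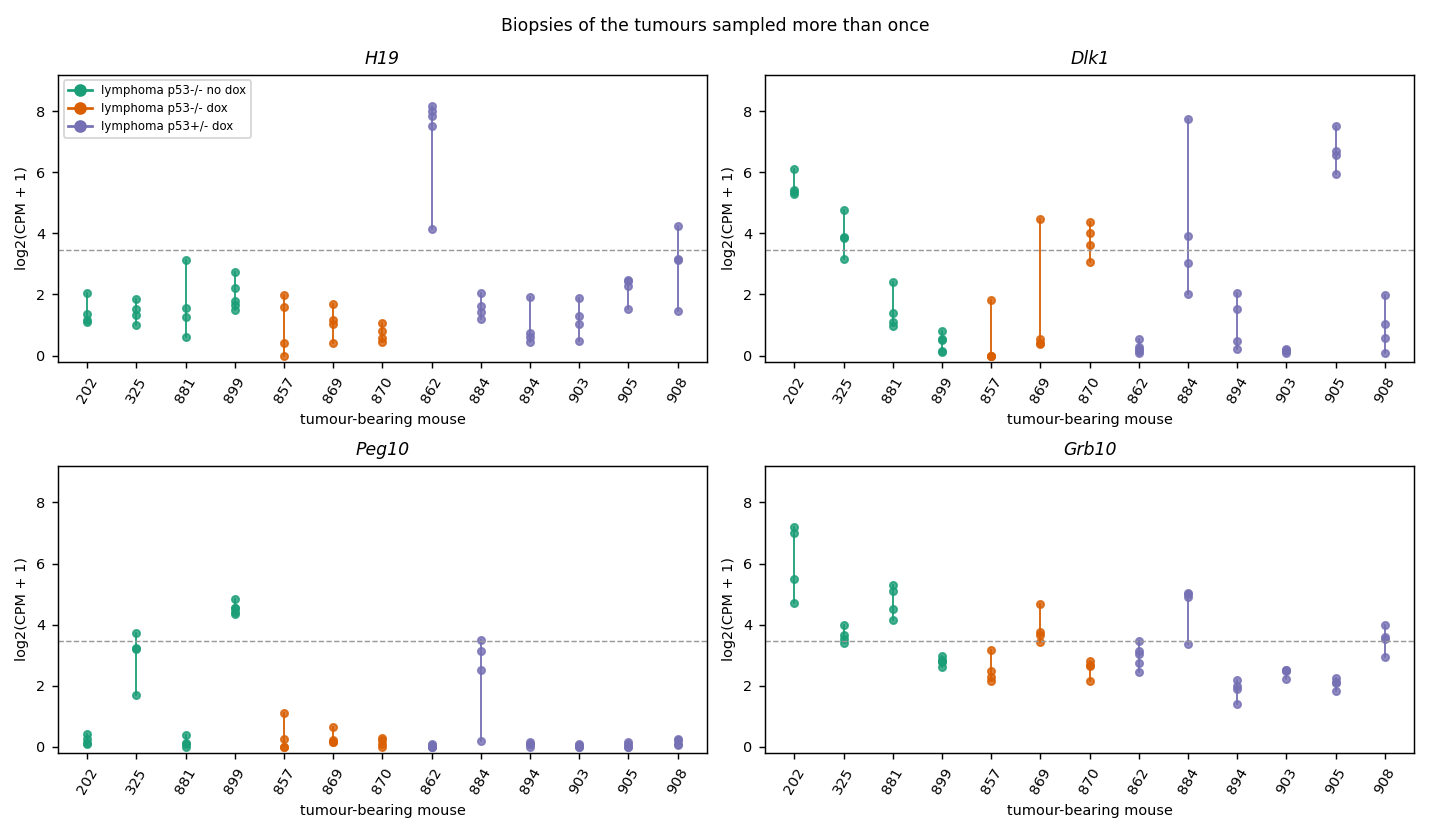
H19, Dlk1, Peg10 and Grb10 as log2(CPM + 1) in each biopsy of the 13 tumours with several biopsies; points are biopsies, vertical lines join those of a tumour and the dashed line marks 10 CPM. Biopsies of lymphoma 899 stay together for Peg10 (19.5 to 27.7 CPM), whereas those of lymphoma 884 range from 3.06 to 212 CPM for Dlk1.

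The variance of log2(CPM + 1) over these 54 libraries was divided into a share between tumours and a share within them. The share between tumours was 89.9% for Peg10, 83.8% for Grb10, 81.8% for H19 and 81.4% for Dlk1. It was 62.8% for Peg3, 52.1% for Igf2, 45.2% for Meg3 and 43.04% for Plagl1. The median over 14831 genes was 74.7%, so that Peg10, Grb10, H19 and Dlk1 lay above it and the other 4 genes below. The shares of H19 and Peg3 rested on lymphoma 862. Without it the share was 39.6% for H19 and 11.4% for Peg3. Over the 13 tumours left out in turn, Dlk1 kept 74.1% to 88.1% and Grb10 82.4% to 85.4%. Meg3 averaged under 1 CPM in these libraries.

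**Figure D4:**
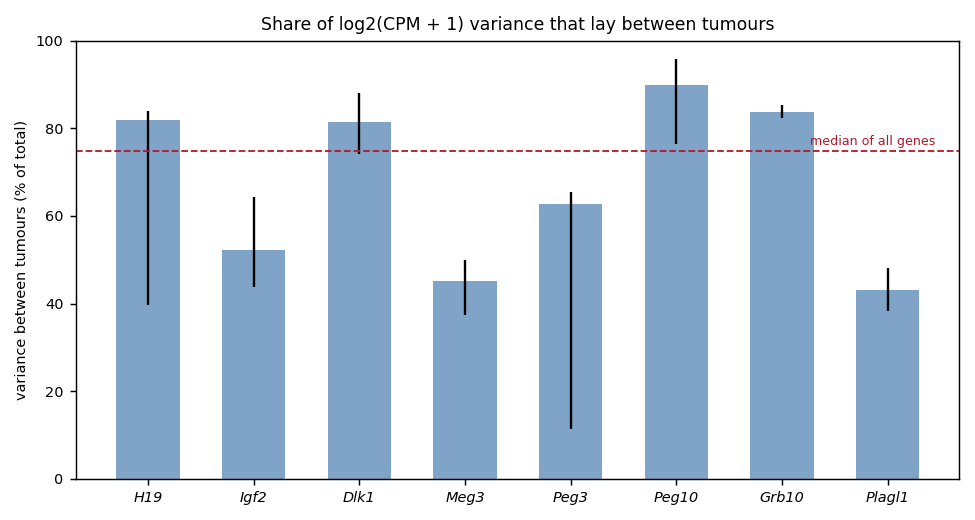
Bars give the percent of the variance of log2(CPM + 1) that lay between the 13 tumours over 54 libraries, vertical lines the range when each tumour is left out in turn, and the dashed line the median of all genes (74.7%). The lines of H19 and Peg3 reach down to 39.6% and 11.4%.

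The 8 genes did not move as 1 group. Over the 31 lymphomas Spearman's rho between pairs of them ran from -0.21 (H19 and Dlk1) to 0.53 (Meg3 and Grb10). Outside the group, Prrx1, a mesenchymal transcription factor, was nearest to Grb10 with a rho of 0.89, followed by Slc25a24, Rcn3, Dlc1 and Golm1 (0.85 each). Meg3 was followed, after Rian, by the matrix genes Col16a1, Bmp1, Adamts2 and Col5a2 (0.69 to 0.71). Peg3 was near the fat genes Cidec (0.74) and Adipoq (0.72) and near Lclat1, Fam13a and B4galt2 (0.73 to 0.74).

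H19 lay nearest to Dnajb14 (0.72), Gm44250, Slc13a3, Cxcl13 and Tlr2 (0.68), the last 2 being a chemokine and a receptor of innate immunity. Plagl1 lay nearest to Chn1 (0.79), Lsr, Bicd1, Klhl18 and F2rl1 (0.75). Igf2 lay nearest to Rab15 (0.75), Abcc8, Lsr, Plpp2 and Rnpep (0.70). For Dlk1 the highest rho was 0.65 (Nsmce1, then Rnase6, Kcne4, Igkv19-93 and 1700012B07Rik), and Peg10 had Cacnb1 (0.72), Arhgef11, Rara, Fhl1 and Galm (0.66).

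The 8 genes were then set against the summed CPM of 8 lists of cell type markers over the 31 lymphomas, 64 pairs in all. The lists were those of T cells, fibroblasts, endothelium, thymic epithelium, fat, muscle, B cells and macrophages. Genes and lists were chosen with earlier results of these data known, so the p-values of these pairs are given as descriptions. By Spearman's rho 3 pairs passed a two-sided permutation test after Benjamini-Hochberg adjustment. They were Plagl1 with thymic epithelium (rho 0.74, adjusted permutation p = 0.00064, the unadjusted p of 1e-05 being the smallest these permutations can give), H19 with macrophages (rho 0.60, adjusted permutation p = 0.0128) and Grb10 with fibroblasts (rho 0.57, adjusted permutation p = 0.0194). With the 18 single-biopsy tumours 0 pairs passed by rho, while rho of the same 3 pairs was 0.66, 0.54 and 0.59.

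Pearson's r was 0.64 for Plagl1 (adjusted permutation p = 0.00512) and 0.71 without the 2 lymphomas farthest from the median marker level. For Grb10 it was 0.51 (adjusted permutation p = 0.038) and 0.32 without the 2 farthest, so that relation was weaker without them. For H19 it was 0.40 (adjusted permutation p = 0.221) and 0.44 without them, and it did not pass by this measure. Within the 3 lymphoma groups, untreated p53-/- first, rho was 0.68, 0.93 and 0.46 for Plagl1 and thymic epithelium (n = 10, 9 and 12), 0.83, 0.23 and 0.52 for H19 and macrophages, and 0.22, 0.83 and 0.64 for Grb10 and fibroblasts. By Pearson's r alone 3 further pairs passed. Igf2 with muscle had 0.65 (adjusted permutation p = 0.0248), but 0.12 without the 2 farthest lymphomas. Meg3 with fibroblasts had 0.59 (adjusted permutation p = 0.00928) and 0.47 without them. Grb10 with T cells had -0.60 (adjusted permutation p = 0.0248) and -0.57 without the 2 farthest. Spearman's rho of that pair was -0.51 and did not pass (adjusted permutation p = 0.0566).

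**Figure D5:**
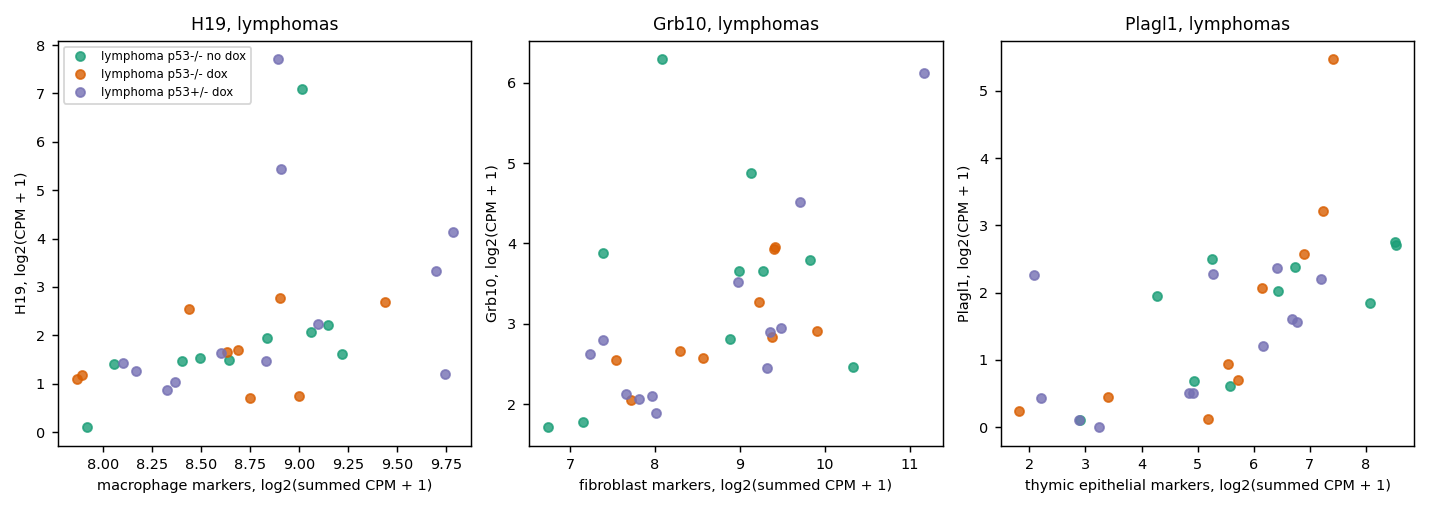
H19, Grb10 and Plagl1 in the 31 lymphomas, as log2(CPM + 1), against the summed CPM of macrophage, fibroblast and thymic epithelial markers on the same scale; points are mice, coloured by group. Plagl1 rises with thymic epithelial markers (rho 0.74). For H19 the 2 highest lymphomas, 862 and 562, have 474 and 516 CPM of macrophage markers, and the highest such value (881 CPM) is that of 266.

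Beyond these 8 genes, 60 further imprinted genes were listed, of which 42 passed the filter on low counts. Compared with normal thymus edgeR called 4 higher and 11 lower in untreated p53-/-, 5 higher and 16 lower in treated p53-/- and 7 higher and 15 lower in treated p53+/- lymphomas. The called shares were 35.7%, 50% and 52.4%, and those of all genes 40.7%, 52.1% and 50.9%. The median log2 difference of the list was -0.27, -0.65 and -0.35. Without normal mouse 387 it was -0.08, -0.36 and -0.11, and the lower calls were 9, 11 and 11.

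Among the genes that fell, Nnat, a small membrane protein of neuronal and endocrine cells, had a median of 0.495, 0.445 and 0.446 CPM in the 3 lymphoma groups and of 9.62 CPM in normal thymus (range 1.56 to 339). Its log2 differences were -5.36 ± 0.97, -6.66 ± 1.01 and -6.25 ± 0.85 (SE, edgeR adjusted p = 3.5e-05, 1.5e-06 and 2.0e-07). Mouse 387, the normal thymus with the most fat markers, held 80.4% of the summed Nnat CPM of its group. Without it the differences were -3.72, -4.37 and -3.79, and all 3 stayed called. Snrpn, of the Prader-Willi region, shares its transcript with Snurf. It fell by 3.11, 4.12 and 4.05 on the log2 scale, and lay below every normal thymus in all 31 lymphomas. Ndn, of the same region, fell by 3.01, 2.67 and 3.48 (by 2.45, 1.93 and 2.66 without mouse 387), and Gpr1 and Ppp1r9a fell as well.

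Among those that rose beside Ddc, Nespas increased by 3.49, 3.02 and 2.22 on the log2 scale from a mean of 0.156 CPM (edgeR adjusted p = 0.0041, 0.00946 and 0.0461). The last call was lost without mouse 387 (2.16), without TMM factors (2.11), without the low-count filter (2.26) and with single-biopsy tumours only (1.78). Nespas is antisense to the Gnas cluster, and with the strand setting not given its reads cannot be told apart from those of the other strand. Nap1l4, of the Kcnq1 and Igf2 region, rose by 0.43, 0.57 and 0.64. The first of these was lost without TMM factors (0.29) and with single-biopsy tumours only (0.26). Mkrn3 rose in treated p53-/- lymphomas (2.29 ± 0.97, edgeR adjusted p = 0.0448), a call lost in 5 of 8 alternatives. Smaller rises were those of Trappc9 in untreated p53-/- (0.49 ± 0.13, edgeR adjusted p = 0.00356) and treated p53+/- lymphomas (0.35 ± 0.13, edgeR adjusted p = 0.0197, lost without TMM factors at 0.23), Commd1 in treated p53-/- (0.73 ± 0.23, edgeR adjusted p = 0.00848) and Inpp5f in treated p53+/- lymphomas (0.63 ± 0.22, edgeR adjusted p = 0.0161).

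Genes of the insulin-like growth factor system were also listed, 16 in all with 13 tested. They comprised Igf1, receptors, receptor substrates, secreted binding proteins, and RNA-binding proteins of the Igf2bp and Lin28 families. Igf2bp3, an RNA-binding protein of Igf2 and other messages known from fetal tissue, rose in all 3 groups (4.99 ± 0.99, 3.47 ± 0.95 and 4.93 ± 0.96 (SE, log2), edgeR adjusted p = 0.000119, 0.00254 and 6.2e-05). Its medians were 39.1, 15.8 and 53.3 CPM, against 1.22 CPM in normal thymus. Igfbp5 and Igfbp6, secreted binding proteins, fell in all 3 groups, with log2 differences of -5.99, -6.18 and -6.60 (Igfbp5) and -3.69, -4.2 and -4.49 (Igfbp6). Without mouse 387 the values were -5.45, -5.49 and -5.88 for Igfbp5 and -2.91, -3.18 and -3.41 for Igfbp6, and all 6 calls stayed. In total 3 rose and 5 fell, 3 rose and 6 fell, and 2 rose and 4 fell. The called shares of this list were 61.5%, 69.2% and 46.2%, and those of all genes 40.7%, 52.1% and 50.9%.

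A list of genes that set, keep, read or remove DNA methylation or guard imprints held 15 genes, all of them tested. Of these, 8, 7 and 7 rose and 1 fell in each comparison. Of all genes 23.2%, 25.4% and 25.6% were called higher and 17.6%, 26.7% and 25.3% lower. Dnmt1, the maintenance methyltransferase, rose by 1.73, 1.49 and 1.45, and Dnmt3b by 1.92 in treated p53+/- lymphomas. Ctcfl, the germ-cell relative of CTCF, rose by 3.50, 2.77 and 2.94, from a mean of 0.544 CPM. The gene that fell was Zfp57, the factor that guards imprints, with log2 differences of -2.21 ± 0.80, -3.32 ± 0.82 and -3.06 ± 0.72 (SE, edgeR adjusted p = 0.0255, 0.000975 and 0.000541). Its first call was lost without mouse 387 (-1.46) and with single-biopsy tumours only (-1.85). The other differences were -2.23 and -1.89 without mouse 387 and stayed called.

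The single p53+/- normal thymus, mouse 819, was compared gene by gene with the p53+/+ thymuses. It had 3.15 CPM of H19, 2.42 of Igf2, 0.899 of Dlk1, 5.62 of Peg3, 0.393 of Peg10, 14.3 of Grb10 and 12.2 of Plagl1, all within the range of the 8 p53+/+ mice. Its Meg3, 1.12 CPM, was below their lowest value of 1.497 CPM.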

How the data were processed

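Per the labels' protocols, RNA of frozen thymic tissue was made into standard Illumina libraries and sequenced. The values the authors deposited are RSEM expected counts in 1 table, not scaled between libraries. The submitters' processing notes name CASAVA 1.8, fastp, STAR 2.7.2b, RSEM 1.1.17 and build mm10. Strandedness and annotation are not given in the sources used here. Coordinates are from GENCODE M21 on GRCm38, matched by Ensembl ID for 51633 of 51826 rows.

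The genes and lists were chosen with earlier results of these data known. Expected counts (14.25% of values not whole) were summed per mouse and rounded, and tested with edgeR 4.0.16 (TMM, filterByExpr, robust quasi-likelihood, labelled sex as covariate) in R 4.3.3. A first fit held normal p53+/+ thymus and the 3 lymphoma groups, a second the 3 lymphoma groups. Benjamini-Hochberg adjusted p under 0.05 over all genes was a call. DESeq2 1.42.0, no filter, no TMM factors, no sex covariate, leaving out mouse 387 and single-biopsy tumours were alternatives. The code was tested on simulated data. CPM used library totals (1030429 to 26871780 counts), and log2 values a pseudocount of 1. Correlations used 100000 permutations. Variance shares came from a one-way random-effects division over 54 libraries.

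Genes outside the 8 were named by rule: the 5 called imprinted genes with the largest change in each direction per comparison with normal thymus, domain neighbours with a mean of at least 1 CPM over all mice, the 3 largest called changes of the growth factor and imprint-upkeep lists, and for each of the 8 genes the 5 with the highest rho among genes with a mean of at least 1 CPM in lymphomas.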

Additional observations from a re-analysis of the deposited data

Results flagged for a closer look

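In 24 groups of 8 to 10 mice (8 genes in 3 groups), 14 had a mouse whose distance to the nearest other mouse was a larger part of the group's range than Dixon's 95% critical value. Chance sets apart about 1 in 20 such groups, but the genes were chosen because their levels differed between tumours in these libraries and CPM values are skewed, so the number is a description and nothing is read from it. Treated p53+/- lymphomas, with 12 mice, were too many for this comparison.

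In normal thymus, mouse 387 stood apart for Meg3 (51.97 CPM, 0.93 of the range), Grb10 (74.6 CPM, 0.86), Peg3 (44.1 CPM, 0.79) and Peg10 (3.09 CPM, 0.65), and mouse 787 for H19 (6.29 CPM, 0.56). Among the p53+/+ normal thymuses, mouse 387 also had the fewest T-cell and thymic epithelial markers and the most fat, fibroblast (1340 CPM, group median 171), endothelial (527, median 252) and B-cell markers (1030, median 108). Their part in these values was not tested.

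Among untreated p53-/- lymphomas, mouse 562 stood apart for H19 (136 CPM, 0.97 of the range), Peg3 (4.39 CPM, 0.83) and Igf2 (10.5 CPM, 0.61). Mouse 202 did so for Dlk1 (46.5 CPM, 0.66) and Grb10 (77.5 CPM, 0.65), and mouse 899 for Peg10 (22.8 CPM, 0.62).

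Among treated p53-/- lymphomas, mouse 663 stood apart for Dlk1 (473 CPM, 0.96 of the range), Plagl1 (43.4 CPM, 0.81) and Meg3 (4.69 CPM, 0.58).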

How the results depend on the processing

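The counts of genes called against normal thymus stayed within 1.5 times under all alternatives run, and no result changed sign among called values. Between lymphoma groups, where edgeR called 0 genes, DESeq2 called 75 (treated against untreated p53-/-), 12 (treated p53+/- against treated p53-/-) and 3 (treated p53+/- against untreated p53-/-), and in the last contrast 7 were called without the low-count filter and 21 without the sex covariate. The imprinted genes called higher in treated p53+/- lymphomas numbered 4 in place of 7 without TMM factors and 4 with single-biopsy tumours only. The number of lymphomas at or above the limit for a high gene depended on that limit: at 5 CPM it was 7 for H19, 1 for Meg3, 2 for Peg3, 3 for Peg10, 20 for Grb10 and 4 for Plagl1, and at 20 CPM it was 6 for Dlk1, 4 for Grb10, 0 for Igf2 and 0 for Peg3. Without mice 562 and 881 it was 0 for Igf2 at 10 CPM. By Spearman's rho, 0 marker pairs passed the permutation test with the 18 single-biopsy tumours only. There rho was 0.66 for Plagl1 with thymic epithelium, 0.54 for H19 with macrophages and 0.59 for Grb10 with fibroblasts. By Pearson's r the smallest unadjusted permutation p-values there were 0.00128 (Grb10 with fibroblasts), 0.0016 (Meg3 with fibroblasts) and 0.00195 (Plagl1 with thymic epithelium). Alternatives without mice 328, 869 and 870, without mice 562 and 881, without libraries under 5000000 counts for the numbers of high lymphomas, with 1 tumour left out for the variance shares, and single-biopsy tumours for the contrasts between lymphomas were chosen after seeing the data. No paired analysis was possible because replicate numbers only follow accession order and pair no mice across groups. Biopsies of lymphoma 857 with 1030429 to 3158598 counts had 3-count floors of 0.95 to 2.91 CPM.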

Other observations

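Asb4, a neighbouring gene in the Peg10 domain that was not among the 8, had the same uneven pattern between tumours. It was at most 0.942 CPM in normal thymus, at or above 10 CPM in 5 of 31 lymphomas (highest 15.8 CPM) and under 1 CPM in 17. It was singled out after its values were seen.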
